A study of Mus musculus with 3 samples.

Results

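Actb and Gapdh, the genes most often used to scale the RNA level of other genes, were measured in mouse 2-cell embryos. The 2 members were taken by position: the coverage over chr5:143664795-143668403 for Actb and over chr6:125111800-125116500 for Gapdh (mm9), 3609 and 4701 bases among a nuclear genome of 272592 windows of 10 kb. The study had 1 group of 3 litters, numbered 1 to 3, each a pool of embryos collected at E1.5 and lysed as a litter. Mothers were LSD1 FL/FL, carrying floxed alleles of a histone demethylase gene, and ZP3::Cre negative, so the oocyte-expressed Cre was absent, on a mixed strain background with C57/Bl6J. Fathers are given in one label as wild type CB6 and in another as C57/Bl6J. RNA was amplified before library construction, and every library thus reports amplified cDNA from all embryos of a litter, in which fewer cells and less RNA per cell cannot be told apart. With 1 group there was no contrast between conditions. The comparisons were between the genes, between sequences within each gene, and among litters.

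Actb encodes cytoplasmic beta-actin, a building block of the actin filaments that shape the cell cortex and the cleavage furrow. Gapdh encodes glyceraldehyde-3-phosphate dehydrogenase, an enzyme of glycolysis. Cleavage-stage mouse embryos rely mainly on pyruvate rather than glucose for energy, and their RNA is a mixture of transcripts stored in the oocyte and those made after activation of the embryonic genome. Both genes have processed pseudogenes, copies of spliced mRNA inserted elsewhere in the genome, and Actb also has close relatives that encode other actins.

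The files hold coverage per base, which split exactly into ungapped alignments of 72 bases, and these alignments are the unit counted. Nuclear alignments numbered 34014013, 32431630 and 40474940 in litters 1 to 3. Levels are given as RPKM, here the alignments counted per kb for each 1000000 on nuclear sequence. An alignment is not a read, since 1 read matching more than 1 place may appear at every one of them. Intervals on counts are exact Poisson 95% intervals and cover counting error only, since no molecular identifiers tell copies of 1 molecule apart after amplification. Where a count is 0, the limit given is 3 alignments, a one-sided bound. Litters are separate collections, and an exact permutation test over 3 of them cannot give a p below 0.25.

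Because a 72-base alignment is placed by its sequence, each 72-base stretch of both spliced transcripts was searched for in all other GENCODE M21 genes, allowing up to 2 mismatches. The Gapdh stretch that the most other genes held is shown with an exact copy, a copy with 1 mismatch and a copy with 2. Capitals mark bases that differ from the first sequence, coordinates are GRCm38, and all sequences read 5′ to 3′ on the transcript's strand. The stretch is coding sequence of exon 4, chr6:125162909-125162980 on the minus strand. It was held by 125 other genes, 45 of them without a mismatch. The 3 copies shown are processed pseudogenes, AC091332.1 at chr17:79257950-79258021 (minus strand), Gm10284 at chr8:57550683-57550754 (plus strand) and Gapdh-ps14 at chr8:41609211-41609282 (minus strand).
Gapdh: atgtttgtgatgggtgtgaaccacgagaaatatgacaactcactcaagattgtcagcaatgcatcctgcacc
AC091332.1: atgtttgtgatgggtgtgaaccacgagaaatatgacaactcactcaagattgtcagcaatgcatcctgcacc
Gm10284: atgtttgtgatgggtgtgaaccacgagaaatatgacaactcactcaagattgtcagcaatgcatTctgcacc
Gapdh-ps14: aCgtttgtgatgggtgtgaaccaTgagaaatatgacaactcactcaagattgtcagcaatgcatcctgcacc

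Actb RNA was present along nearly the whole transcript in every litter. The region held 1770 alignments in litter 1 (95% interval 1688 to 1854), 1018 in litter 2 (956 to 1083) and 1734 in litter 3 (1653 to 1818). Its level was 14.4, 8.71 and 11.9 RPKM, a mean of 11.7 ± 2.86 (SD, n = 3). Litter 2 was lowest and litter 1 highest, and their counting intervals did not overlap. These alignments began at 593, 450 and 618 distinct positions, so that 62.2% ± 5.66 (SD, n = 3) repeated a start already taken in the same litter.

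Gapdh RNA gave far fewer alignments. The region held 88 alignments in litter 1 (95% interval 70.6 to 108), 101 in litter 2 (82.3 to 123) and 64 in litter 3 (49.3 to 81.7). Its level was 0.550, 0.662 and 0.336 RPKM, a mean of 0.516 ± 0.166 (SD, n = 3). Litter 2, lowest for Actb, was highest for Gapdh, and litter 3 was lowest. The alignments began at 43, 56 and 37 distinct positions, with 46.0% ± 4.64 (SD, n = 3) repeating a start.

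Exon and intron lengths of annotated transcripts were laid over the mm9 coverage, since the annotation used is of another build. Exon numbers and values along the spliced transcript follow the transcripts Actb-201 and Gapdh-203. For Actb, exons placed with the annotated 3′ end on the first base of the region held 98.4% of alignments. They held 97.0% of start positions, against a median of 16.9% over 6001 shifts. The highest share was 97.6%, reached 5 bases away. For Gapdh the shift was found on the neighbouring gene Ncapd2, where the best of 6001 shifts held 46.9% of start positions against a median of 7.28%. At that shift Gapdh's own exons held 98.2% of its alignments. Both genes lie on the minus strand, so their 3′ ends have the lower coordinates.

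Actb alignments lay in exons. The level over its 1920 exonic bases was 27.0, 16.4 and 22.4 RPKM (22.0 ± 5.35, SD, n = 3), and over its 1720 intronic bases it was 0.0783, 0.00971 and 0.0186. Exons held 99.9% ± 0.113 (SD, n = 3) of the aligned bases. Whole alignments inside introns numbered 2 in litter 1 and 0 in litters 2 and 3, where the one-sided limit is 3. The log2 ratio of exon to intron level was 8.43, 10.72 and 10.24, a mean of 9.80 ± 1.21 (SD, n = 3, above 0 in 3 of 3 litters, exact sign-flip permutation test, two-sided p = 0.25, adjusted over 5 tests 0.25). Summed over litters, exons held 4454 alignments at 1494 possible start positions and introns 2 at 1365, a ratio per position of 2035 with a counting interval of 563 to 16806. The 2 kb beyond the 3′ end held 0, 1 and 3 alignment starts and the 2 kb beyond the 5′ end held 0 in every litter. Coverage therefore stopped at both ends of the placed gene.

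**Figure D1:**
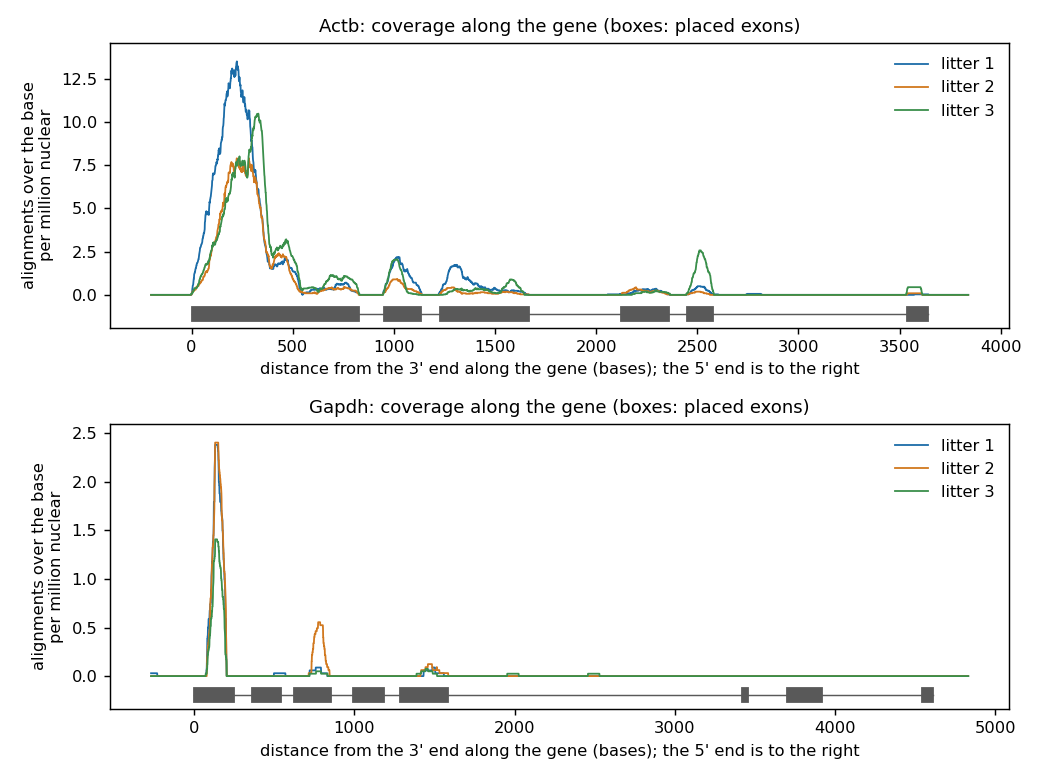
Coverage along Actb (top) and Gapdh (bottom), as alignments over each base per 1000000 nuclear alignments, against distance from the 3′ end in bases, with 1 line per litter and boxes for placed exons (for Gapdh including an alternative first exon). Actb coverage peaked in the last exon and reached the other exons in every litter, whereas Gapdh coverage was a peak inside the last exon with small blocks in exons 3 and 5.

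Within Actb, the last exon carried most of the signal. Exon 6, which holds the end of the coding sequence and the 3′ untranslated region, had a level of 53.1, 34.3 and 43.3 RPKM (43.6 ± 9.43, SD, n = 3). It held 86.0% ± 3.77 (SD, n = 3) of the exonic aligned bases. Exon 5 had levels of 17.2, 6.71 and 11.6, and exon 4 had 8.35, 2.03 and 4.11, so litter 2 was lowest in each of exons 4 to 6. Exon 3 had 2.70, 2.82 and 1.53. Toward the 5′ end the order of litters was another. Exon 2, which holds the start codon, had levels of 4.01, 1.42 and 19.8, and the noncoding exon 1 had 0.274, 0.894 and 4.24. Litter 3 was highest in both exons, at 14.0 times litter 2 in exon 2, although its exon 6 level was below that of litter 1. Exon 2 stretches were held by no other gene and gave 16, 5 and 91 alignments.

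By transcript region, the Actb 3′ untranslated region of 683 bases had a level of 63.1, 40.6 and 49.7 RPKM (51.1 ± 11.3, SD, n = 3). The coding sequence of 1128 bases had 7.82, 3.21 and 7.66 (6.23 ± 2.62, SD, n = 3). The ranges of these regions did not overlap. The 3′-most 960 bases of the spliced transcript held 89.8%, 93.7% and 88.0% of aligned bases, and their level exceeded that of the 5′-most 960 bases 8.84-fold, 14.9-fold and 7.30-fold. The mean log2 ratio was 3.30 ± 0.53 (SD, n = 3, above 0 in 3 of 3 litters, exact sign-flip permutation test, two-sided p = 0.25, adjusted over 5 tests 0.25). The highest coverage on a base was 459, 256 and 424 alignments, at 224 bases from the 3′ end in litter 1, at both 224 and 284 in litter 2 and at 330 in litter 3. The lean to the 3′ end was steep but did not leave the rest of the transcript empty: 98.0%, 97.4% and 93.2% of transcript bases were covered.

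**Figure D2:**
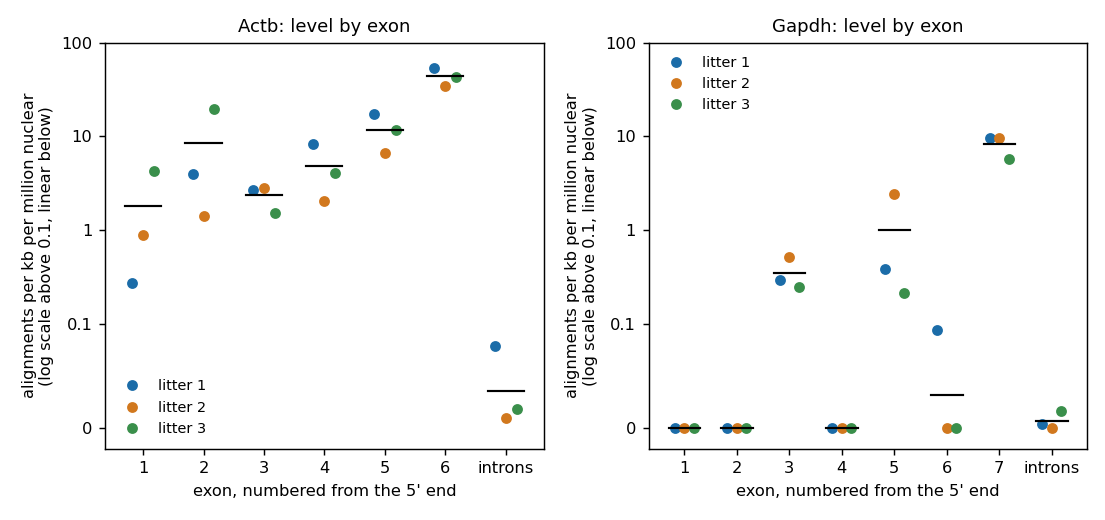
Level of each exon and of all introns together (RPKM, log scale above 0.1 and linear below) for Actb (left) and Gapdh (right), with 1 point per litter and a line at the mean of 3 litters. All 6 Actb exons lie above its introns, and Gapdh exons 1, 2 and 4 lie at 0 in all 3 litters. Gapdh exon 2, at 41 bases, is shorter than an alignment.

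Gapdh alignments were also exonic but covered little of the transcript. The exon level was 1.72, 2.08 and 1.02 RPKM (1.61 ± 0.538, SD, n = 3), and the intron level was 0.00393, 0.000412 and 0.0158. Whole alignments inside introns numbered 0, 0 and 2. The mean log2 ratio of exon to intron level was 9.03 ± 3.15 (SD, n = 3, above 0 in 3 of 3 litters, exact sign-flip permutation test, two-sided p = 0.25, adjusted over 5 tests 0.25). Over all litters 249 exonic alignments stood against 2 intronic ones, a ratio per possible start of 341 with a counting interval of 93.5 to 2833. Covered bases made up 28.7%, 29.9% and 26.2% of the 1420-base transcript, against 93.2% to 98.0% for Actb.

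Exon 7, the last exon of Gapdh with the stop codon and 3′ untranslated region, had a level of 9.60, 9.70 and 5.68 RPKM (8.33 ± 2.29, SD, n = 3). It held 92.5%, 77.3% and 91.9% of exonic aligned bases. Exon 3 had levels of 0.296, 0.513 and 0.249, and exon 5 had 0.382, 2.40 and 0.214. The higher share outside exon 7 in litter 2 lay in exon 5, with 18 alignments against 3 in litter 1 and 2 in litter 3. Exons 1, 2 and 4 had no coverage in any litter, and exon 6 was covered only by part of an alignment in litter 1. The 3′-most 710 bases exceeded the 5′-most 710 bases 28.2-fold, 19.4-fold and 19.7-fold (mean log2 ratio 4.46 ± 0.31, SD, n = 3, above 0 in 3 of 3 litters, exact sign-flip permutation test, two-sided p = 0.25, adjusted over 5 tests 0.25). This ratio compared a peak of 81, 78 and 57 alignments with a 5′ part that was mostly at 0. The peak's counts also stood at places on chromosomes 11, 2 and 5, and stretches of exons 3 to 6 were held by other genes. Whether the ratio goes with the RNA or with where alignments could be placed was not tested.

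The place of the covered bases was set beside the search for copies. Of Gapdh's 953 stretches that lie in 1 exon, 212 (22.2%) were held by no other gene, 151 in exon 1 and 61 in exon 7. The remaining 741 were held by other genes. The median number of other genes per stretch was 57 in exon 3, 95 in exon 4, 69 in exon 5 and 83 in exon 6. In exon 7 it was 4. With stretches over exon junctions included, 263 other genes held a stretch of Gapdh, 248 of them annotated as pseudogenes. For Actb 1065 of 1494 stretches (71.3%) were held by no other gene, and 17 other genes held any stretch, those over junctions included, 12 of them pseudogenes.

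Gapdh alignments lay mainly on the exon 7 stretches that no other gene held. Those 61 positions had 77, 73 and 51 alignments, and the other 116 positions of exon 7 had 4, 5 and 6. Last-exon alignments began between 125111941 and 125112000 on chromosome 6 (mm9), 60 positions, and the unshared stretches were placed from 125111939 to 125111999. The limits of the alignments and of the unshared stretches thus lay within 2 bases of each other. Unshared means held by no other GENCODE gene, not unique in the genome. Over 57 of the exon 7 start positions, the same counts also stood on chromosomes 11, 2 and 5. The 127 stretches of exon 4 and the 111 of exon 6, each held by at least 66 other genes, had 0 alignments in every litter. Exon 1 was different: its 151 unshared positions also had 0 in every litter. The one-sided limit of 3 alignments there is 1.99 per 100 positions, against 126, 120 and 83.6 in the unshared part of exon 7. Exon 1 lies at the 5′ end and exon 7 at the 3′ end, and an alternative first exon of Gapdh is annotated. Whether either goes with the 0 was not tested. Per 100 positions, Gapdh stretches held by no other gene had 36.3, 34.4 and 24.1 alignments and shared ones 1.35, 3.64 and 1.48.

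Actb did not show this split. Its unshared stretches had 131, 73.6 and 109 alignments per 100 positions and its shared stretches 79.5, 52.0 and 128. Shared stretches were lower in litters 1 and 2 and higher in litter 3. In exon 6 alone, shared positions had 207, 174 and 421 alignments per 100 and unshared ones 196, 114 and 156. The gene that held the most Actb stretches was Lrrc58, a leucine-rich repeat protein gene, with 472 when stretches over exon junctions are counted too (25.5% of all), followed by the pseudogene Gm15725 with 417. Actg1, which encodes gamma-actin, the other cytoplasmic actin, held 33.

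**Figure D3:**
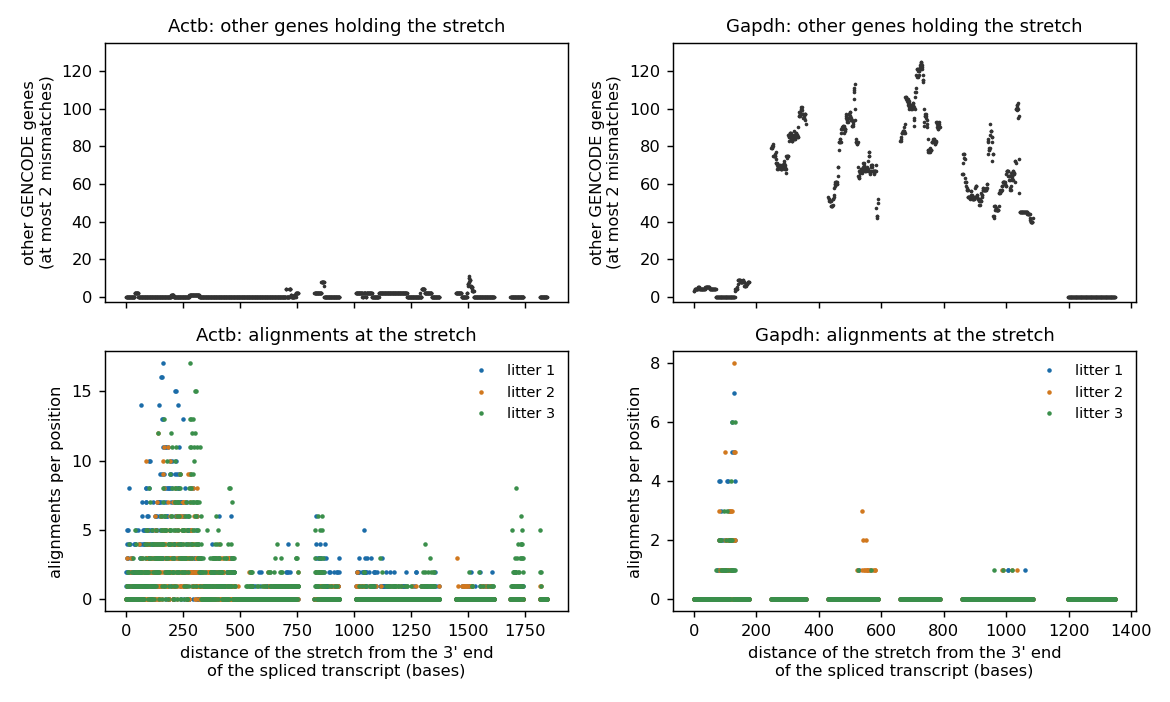
Number of other GENCODE genes that hold each 72-base stretch with at most 2 mismatches (top) and alignments at that stretch in each litter (bottom), against distance from the 3′ end of the spliced transcript in bases, for Actb (left) and Gapdh (right). Gapdh stretches were held by up to 125 other genes and its alignments stood mainly at a short run of stretches held by no other GENCODE gene. Nearly all alignments in that run were also counted at places on chromosomes 11, 2 and 5. Actb stretches were held by at most 11 other genes.

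Counts that repeat at other places were then looked for in the nuclear genome. Runs of 5 successive start positions with at least 15 alignments were compared with every place, in both orientations, by their spacings and counts in all 3 litters. Of 38 Gapdh runs, 34 (89.5%) recurred, all at the same 3 places. These were the start positions chr11:20234909-20234965, chr2:28789022-28789078 and, in reverse orientation, chr5:96291713-96291769 (mm9). Over 57 positions of Gapdh's exon 7, each place had the same count at 100% of positions in every litter, 81, 78 and 56 alignments. Hence 215 of 253 Gapdh alignments (85.0%) stood with equal counts at 4 places, and the annotated identity of the other 3 was not analysed here. Without them Gapdh kept 7, 23 and 8 alignments.

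Repeated counts were a smaller part of Actb. Of 443 runs, 57 (12.9%) recurred, covering 101 start positions with 722 alignments. The longest matches were 27 positions of exon 6 at chr15:24787190-24787216, equal at 100% of positions with 89, 99 and 200 alignments, and 43 positions of exon 5 at chr16:37883466-37883508 in reverse, equal at 100%, 95.3% and 100% of positions. Another match, at chr16:37883972-37883992 in reverse, covered 21 positions of exon 6. The positions of these 3 matches held 633 of 4522 Actb alignments (14.0%), 8.93%, 13.3% and 19.6% of the litters' alignments. Without them Actb kept 1612, 883 and 1394.

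The ratio of Actb to Gapdh depended on the sequence counted. By exon level it was 15.7, 7.86 and 21.9 in litters 1 to 3 (15.2 ± 7.03, SD, n = 3), lowest in litter 2 and highest in litter 3. Actb was higher in 3 of 3 litters, with a mean log2 ratio of 3.80 ± 0.75 (SD, n = 3), or 13.9-fold (exact sign-flip permutation test, two-sided p = 0.25, adjusted over 5 tests 0.25). Over the last exons alone it was 5.53, 3.54 and 7.62, and over stretches held by no other gene it was 3.62, 2.14 and 4.52. At 61 unshared positions of each gene lying 70 to 130 bases from the 3′ end, Actb had 229, 115 and 121 alignments and Gapdh 77, 73 and 51, ratios of 2.97, 1.58 and 2.37 (2.31 ± 0.702, SD, n = 3). Those Gapdh alignments are nearly all among the ones also counted at 3 other places. Without the repeated positions the ratio of the regions was 150-fold, on the 7 to 23 remaining Gapdh alignments per litter. Nearly all of those lay outside exon 7, mostly on stretches shared with other genes, and were still divided by the length of the whole region. Actb stayed above Gapdh in every litter by each of these measures. By the mean log2 ratio, the size ran from 2.23-fold at the positions of equal distance to 150-fold without the repeated positions.

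**Figure D4:**
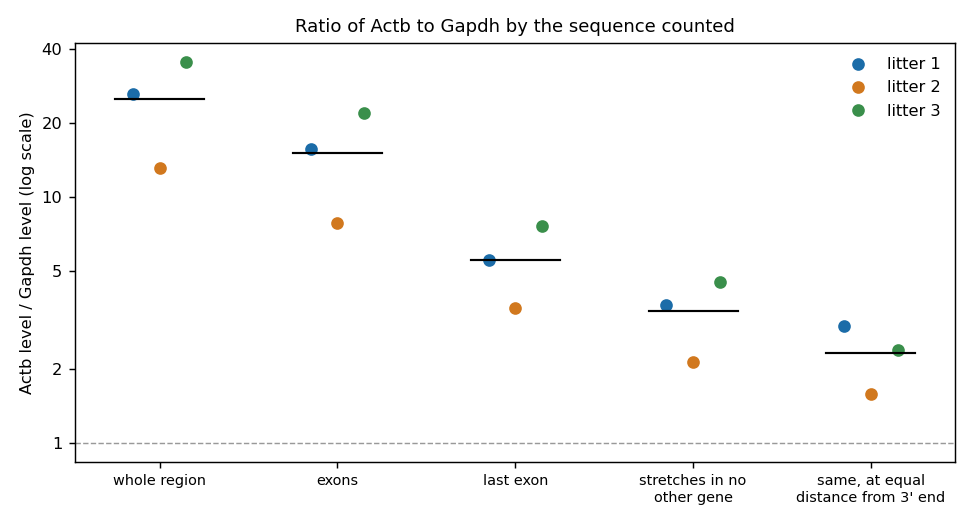
Ratio of Actb to Gapdh level (log scale) by the sequence counted, with 1 point per litter, a line at the mean of 3 litters and a dashed line at 1. The litters' ratios fall from 13.2 to 35.5 over the whole regions to 1.58 to 2.97 at unshared stretches at equal distance from the 3′ end, and all points lie above 1. Unshared means held by no other GENCODE gene. Nearly all Gapdh alignments at those stretches were also counted at 3 other nuclear places.

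Among all 272592 nuclear windows of 10 kb, Actb stood near the top. Its window, chr5:143660001-143670000, had 5.21, 3.15 and 4.45 RPKM (4.27 ± 1.04, SD, n = 3). It ranked 3241, 5662 and 4177 in litters 1 to 3 and 3977 by the mean, in the top 1.46%. Actb itself gave 99.9%, 99.7% and 96.2% of the window's alignments. Windows of 1 kb placed its best window, chr5:143665001-143666000, at rank 6776 of 2725763, the top 0.249%.

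The Gapdh window held mostly alignments outside Gapdh. At chr6:125110001-125120000 it had 3.68, 2.31 and 1.72 RPKM (2.57 ± 1.01, SD, n = 3) and ranked 6502 by the mean, in the top 2.39%. Gapdh gave only 7.02%, 13.5% and 9.20% of its alignments. Of the 1253, 750 and 696 alignments of the window, 1157, 648 and 628 began at or beyond the placed 3′ end of Ncapd2, which encodes a condensin subunit. Gapdh's own alignments set alone in a 10 kb window had 0.259, 0.311 and 0.158 RPKM and ranked 33263 by the mean, in the top 12.2%.

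**Figure D5:**
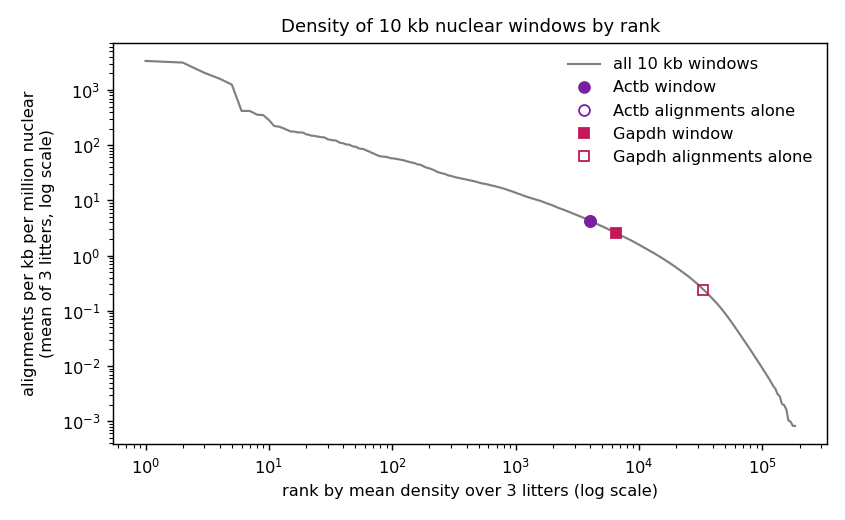
Density of all nuclear windows of 10 kb (alignments per kb per 1000000 nuclear alignments, mean of 3 litters) against rank, both on log scales, with the windows of both genes (filled) and the genes' own alignments alone (open). The Actb points nearly coincide, at ranks 3977 and 4037, while the Gapdh window stands at rank 6502 and Gapdh alone at rank 33263.

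As a reference across litters, the genes had different orders of litters by exon level. Relative to its mean, the Actb exon level was 1.23, 0.746 and 1.02 in litters 1 to 3, and the Gapdh exon level 1.07, 1.29 and 0.637, with litter 2's 18 alignments in the widely shared exon 5 included. The matched positions were 61 of each gene at equal distance from the 3′ end, on stretches held by no other GENCODE gene. Nearly all of the Gapdh alignments there were also counted at 3 other nuclear places. At these positions Actb had 11.04, 5.81 and 4.90 alignments per 100 positions per 1000000 nuclear alignments. Gapdh had 3.71, 3.69 and 2.07. There both genes were highest in litter 1 and lowest in litter 3, with Gapdh nearly equal in litters 1 and 2. No counting interval was set on these values, so the order of the closer litters is not settled. The coefficient of variation of the Actb region was 24.6%, of which counting alone would give 2.59%. The 5861 windows within 2-fold of its mean count had a median of 37.0% (quartiles 23.0% and 57.0%), and 28.2% of them varied less. The Gapdh region varied by 32.1%, with 10.9% from counting. Its 21493 like windows had a median of 93.9% (quartiles 61.9% and 139%), and 8.62% of them varied less. The Gapdh value rests on the counts that recur at 3 other places: without them its spread was 79.0%. That spread rests on far fewer alignments than the like windows hold, so their quartiles are no measure for it. Without litter 3 the Gapdh spread, all counts included, was 13.1%, and the Actb spread without litter 2 was 13.7%. The Actb to Gapdh ratio of the highest litter over that of the lowest was 2.79 by exon level, 2.15 over last exons, 2.12 over unshared stretches and 1.89 at the matched positions.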

How the data were processed

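RNA of 3 litters was amplified with the Nugen Ovation RNA-Seq kit and the cDNA sheared and made into Illumina libraries, per the labels' protocols. The submitters' processing notes name Bowtie and mm9. How Bowtie treated multiple matches, and its version, are not given in the sources used. Per the file headers, the authors' files are bedGraph coverage (signal) tracks with an unscaled number of alignments over each base. Coverage was split into 72-base alignments, checked on simulated data. Levels are summed coverage divided by 72, per kb. Region counts, window densities and the spread use whole alignments.

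Exon lengths, stretches and printed sequences came from GENCODE M21 (GRCm38), and no coordinate was converted. Shared stretches are a lower limit of copies, since intergenic sequence was not searched. Alignments over exon junctions (19.2% of Actb and 29.4% of Gapdh stretches) cannot occur in ungapped data. Tests are exact sign-flip permutations over litters, with Benjamini-Hochberg adjustment over 5. Windows most like each gene were the 5 with the smallest largest log2 difference. Lists of glycolytic, actin and reference genes and of cumulus and sperm markers need an mm9 annotation and were not analysed here. The sequence of the corresponding Actb stretch is not reported here. The members and lists were chosen with earlier results of these data known. The search for copies and for recurring counts was added after the data were seen. Software was Python 3.11.15 with scipy 1.17.1, numpy 2.4.6, matplotlib 3.10.9 and pandas 2.3.3.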

Additional observations from a re-analysis of the deposited data

How the results depend on the processing

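Of 88 alternative values, 73 kept their direction and moved by less than the spread between litters or kept their side of the test, 15 moved and none reversed. For the tested ratios p cannot fall below 0.25, so their side of the test could not change and only direction was checked. Their sizes did change. The log2 ratio of Actb to Gapdh was 3.80 by exon level, 1.16 at matched distances and 7.23 without starts repeated elsewhere. With distinct start positions counted once per litter, the level was 14.9 for Actb and 0.921 for Gapdh, and the spread of Gapdh 16.8%. Here the scaling was by each litter's distinct nuclear start positions, not by its nuclear alignments. Both levels are thus in another unit than the main levels, and their sizes cannot be compared with those. They still count among the 15 values that moved. Scaling by all alignments, mitochondrial ones included, gave an Actb level of 8.36. Chosen after seeing the data were the stretches held by no other gene, at all or at matched distances, the last exons alone, the values without starts repeated elsewhere, Gapdh's or Actb's own alignments alone and exons moved by 5 bases. Stretches held by no other gene gave levels of 29.4 for Actb and 9.08 for Gapdh. These are per kb of unshared exonic start positions, whereas the main levels are per kb of the whole region, introns included. Without starts repeated elsewhere, Gapdh had a level of 0.0789 and a spread of 79.0%. The Actb window stood in the top 2.40% with windows shifted by 5 kb, 0.249% with 1 kb windows and 4.58% of the 86838 windows with alignments in every litter. The Gapdh window stood at 7.49% of the latter, and Gapdh alone at 12.2% of all 272592 windows.

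Leaving out each litter in turn gave spreads of 13.7% to 35.0% for Actb, lowest without litter 2, and 13.1% to 46.2% for Gapdh, lowest without litter 3. Levels ran from 10.3 to 13.2 and from 0.443 to 0.606, and the log2 ratio of Actb to Gapdh from 3.47 to 4.21. The log2 ratio of exon to intron ran from 9.34 to 10.48 for Actb and from 7.40 to 10.54 for Gapdh, lowest without litter 2. The cause of these differences was not tested. No value could be given for Gapdh's exon to intron ratio without the bases next to junctions or with exons moved by 5 bases to the right, or for its 3′ lean over unshared stretches. No paired analysis was possible because there was 1 group, so no replicate numbers pair samples across groups; the ratios tested are within litters. Counting error alone gives a variation of 10.9% for Gapdh, with 64 to 101 alignments a litter, and 2.59% for Actb.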

Other observations

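The 10 kb windows whose density was nearest to that of each gene's window in all 3 litters are given by position (mm9), without gene names. The likeness is over 3 litters: 48 windows lay within 0.25 of Actb on the log2 scale in every litter, and 25 lay that near to the Gapdh window. The nearest to Actb was chr1:19140001-19150000, with 5.55, 3.37 and 4.33 RPKM in litters 1 to 3 and a largest log2 difference of 0.10. The next were chr5:125930001-125940000, chr2:172180001-172190000, chrX:33750001-33760000 and chr14:41260001-41270000, with largest differences of 0.11 to 0.13. The nearest to the Gapdh window, most of whose alignments began at or beyond the placed 3′ end of Ncapd2, was chr2:144090001-144100000, with 3.82, 2.42 and 1.78 and a largest difference of 0.07. The next were chr3:89790001-89800000, chr8:114460001-114470000, chr8:48630001-48640000 and chr5:101220001-101230000, with largest differences of 0.12 to 0.16.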
